A study of Arabidopsis thaliana with 18 samples.

Results

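The genotype difference in the 24 h warm response asks whether seedlings of the arp6-10 mutant and of the wild type Col-0 changed their transcript levels to a different extent after a day at 27 °C. It was measured as an interaction, the change of arp6-10 from 12 °C to 24 h minus the change of Col-0 over the same step, on 12 of the 18 Affymetrix arrays of the series. These are 2 arrays of Col-0 at 12 °C, 2 of Col-0 after 24 h, 4 of arp6-10 at 12 °C and 4 of arp6-10 after 24 h. All 22746 probe sets other than the Affymetrix controls were tested. The other 6 arrays, taken 2 h after the shift, served the normalization and the estimate of the spread and were looked at separately.

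Every group held whole seedlings grown on half-strength medium without sugar, with seeds kept 48 h in the dark at 4 °C, then raised at 20 °C and moved at 5 days of age to 12 °C under continuous light. After 3 days there, seedlings were collected at once or shifted to 27 °C, and the labels give the age as 8 days for all of them. arp6-10 is a mutant allele of ARP6, and Col-0 is the wild type. No group was kept at 12 °C for the additional 24 h, so warmth and elapsed time cannot be told apart in the response of either genotype. Nothing in the labels says whether replicate arrays stand for independently grown seedlings. The p-values therefore rest on array-to-array spread that could be technical alone. ARP6 itself is not analysed here, so the labels were not checked on the targeted gene. In whole seedlings, fewer cells of a type and less RNA per cell cannot be told apart.

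ARP6, an actin-related protein, belongs to the SWR1 remodelling complex, which exchanges histone H2A for the variant H2A.Z in nucleosomes. In Arabidopsis, H2A.Z is enriched next to the transcription start of many genes, and nucleosomes that hold it have been studied as part of how plants sense ambient temperature. Mutants that lack ARP6 deposit less H2A.Z and show, already in the cool, some traits that wild-type plants show in the warm.

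Levels are given as log2(intensity + 16) after quantile normalization. The floor of this scale is 4, and a group mean under 5 is called dim: the transcript is then not shown to be above background and its fold change is a rough value. A negative interaction says that the change of arp6-10 lay below that of Col-0. Calls were made where limma's moderated test gave a p under 0.05 after Benjamini-Hochberg adjustment over all probe sets. One group was said to carry a called difference when the means of the other 3 groups lay closest together and spanned less than 0.5 of the size of the interaction. This is a description of 4 means and not a test.

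The label of 2 arrays went against their profiles. On an axis that runs from 0, the mean of the other 3 arrays of arp6-10 at 12 °C, to 1, the mean of the other 3 arrays of arp6-10 at 24 h, the array labelled arp6-10 12 °C replicate 3 lay at 0.93 and the array labelled arp6-10 24 h replicate 2 at 0.0072. limma's array weights were 0.397 and 0.343 for them and at least 0.778 for the other 16 arrays. All results are therefore given as labelled, with 18 arrays, and without both arrays, with 16. The choice of these arrays rests on values of these data, so the 16-array calls depend on it.

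The arrays also differed in control measures. The deposited median level was 6.27 to 6.39 in Col-0 at 12 °C and lay between 6.52 and 6.72 on the other 10 arrays of the comparison. The ratio of the 3′ to the 5′ GAPDH control probe sets, a measure of RNA integrity and labelling, was 1.99 to 3.06 in Col-0 at 12 °C, 3.67 to 3.75 in Col-0 at 24 h, 1.47 to 5.51 in arp6-10 at 12 °C and 1.51 to 6.48 in arp6-10 at 24 h. The same ratio for the actin controls was 69.7 on Col-0 24 h replicate 1 and 26.5 on Col-0 24 h replicate 2. On the other 10 arrays of the comparison it was 22.5 to 51.5. The mean of the spiked hybridization controls was 3573 to 3696 in Col-0 at 12 °C, 3497 to 4335 in Col-0 at 24 h, 2569 to 3020 in arp6-10 at 12 °C and 2329 to 3906 in arp6-10 at 24 h. The deposited median thus set Col-0 at 12 °C apart from the other groups of the comparison, while its GAPDH ratio and hybridization controls lay within the range of others. The Col-0 arrays at 2 h had similarly low medians, 6.34 and 6.41. The hybridization controls went with genotype. Those of both Col-0 groups lay above those of every arp6-10 array except arp6-10 24 h replicate 4 (3906). The part of these differences in the results was not tested. All 12 arrays had high levels of the green-tissue gene RCA, the activase of Rubisco (13.49 to 14.00), and of the root gene PYK10, a beta-glucosidase of endoplasmic reticulum bodies (12.52 to 13.70).

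With 18 arrays as labelled, the response differed between genotypes for 761 of 22746 probe sets (3.35%), of which 581 were negative (2.55%) and 180 positive (0.791%). Among the 581, the median change was 1.41 log2 units in Col-0 and -0.11 in arp6-10. Among the 180, it was -1.23 in Col-0 and 0.14 in arp6-10. The interaction of all probe sets had a median of 0.03, and 4187 passed an unadjusted p under 0.05. Tested on its own, Col-0 changed at 2521 probe sets (11.1%), and arp6-10 at 0 by limma's adjusted p as labelled. Of the 761, Col-0 rose at 564, fell at 168 and was called in neither direction at 29, beside 6.59% that rose and 4.49% that fell among all probe sets. The same Col-0 arrays enter the interaction, so these counts describe the calls. The number of calls depended on single arrays: it was 61 without Col-0 24 h replicate 1, 365 without Col-0 12 °C replicate 1 and 486 without arp6-10 24 h replicate 4. It was 324 when the 2 h arrays were left out of the fit.

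The group of Col-0 at 12 °C carried 610 of the 761 calls (80.2%). Its level was the low one at 483 probe sets, by a median of 1.55 below the mean of the other 3 groups, and 128 of these were dim there. It was the high one at 127, by a median of 1.11. Col-0 at 24 h carried 61 calls, arp6-10 at 12 °C carried 2 and arp6-10 at 24 h carried 0, and 88 had no single group. The count for Col-0 at 12 °C was 54 without Col-0 24 h replicate 1, 325 without Col-0 12 °C replicate 1 and 281 without the 2 h arrays. In terms of the genotypes, 549 of the 761 were called higher in arp6-10 than in Col-0 at 12 °C and not at 24 h, and 146 were called lower at 12 °C and not at 24 h. Among all probe sets the genotypes differed at 22.3% at 12 °C (11.8% higher and 10.5% lower in arp6-10) and at 0.563% at 24 h (0.264% higher and 0.299% lower). These comparisons use the arrays that chose the 761 and support nothing about them.

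**Figure D1:**
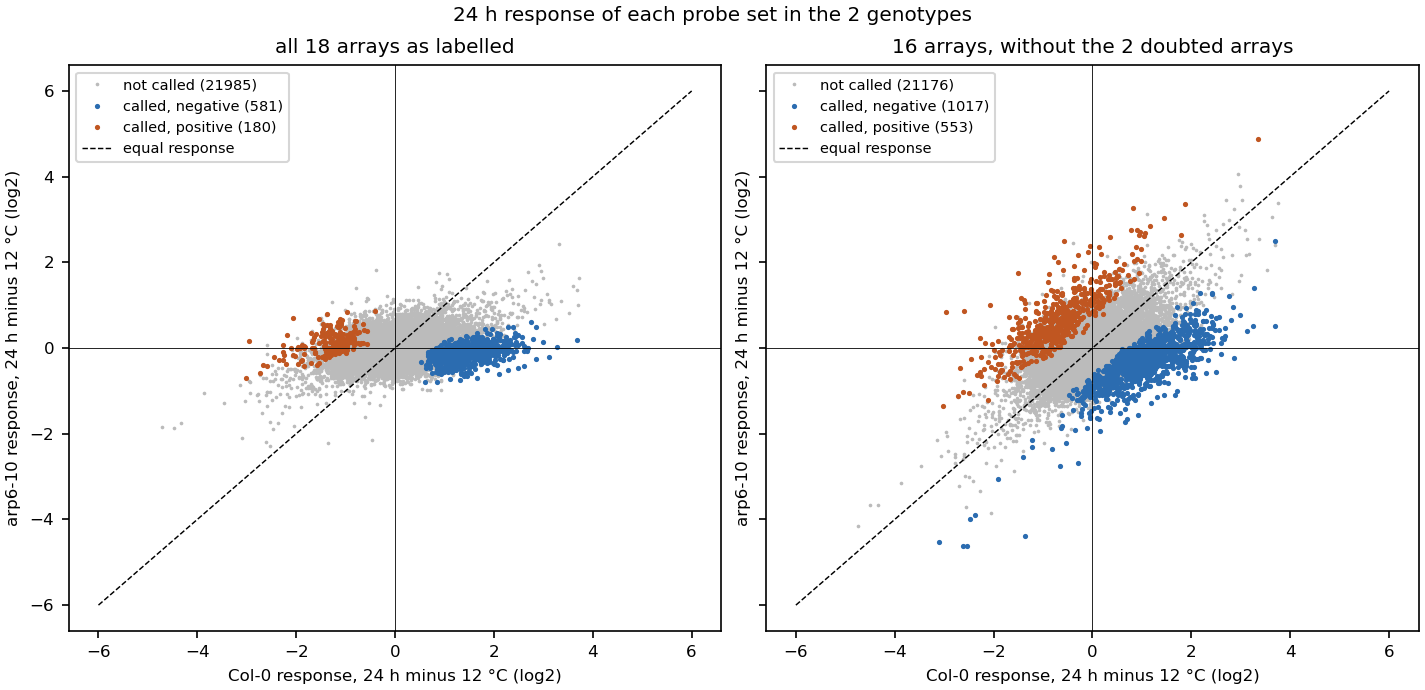
The change from 12 °C to 24 h at 27 °C of each probe set in Col-0 (x axis, log2 units) and in arp6-10 (y axis, log2 units), with all 18 arrays as labelled (left) and with 16 (right). Blue points are called negative interactions (581 and 1017), orange points are called positive ones (180 and 553), grey points are not called, and the dashed line marks equal responses; on the left the called points lie along the x axis, and on the right the responses of arp6-10 spread over a wider range.

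Without both arrays, 1570 probe sets were called (6.90%), 1017 negative (4.47%) and 553 positive (2.43%). The response of arp6-10 alone was then called at 4243 probe sets (18.7%; 8.96% rose and 9.70% fell) and that of Col-0 at 4770 (21.0%; 11.3% rose and 9.68% fell). Within the 1570, Col-0 alone rose at 601 and fell at 239, arp6-10 alone rose at 211 and fell at 238, Col-0 rose and arp6-10 fell at 94, the reverse held at 41, both rose at 61, both fell at 31, and neither was called at 54. In arp6-10, 955 were called higher than in Col-0 at 12 °C and not at 24 h and 466 lower at 12 °C and not at 24 h, beside 14.1% higher and 12.9% lower among all probe sets at 12 °C and 0.787% and 0.743% at 24 h. Col-0 at 12 °C carried 790 of the 1570 (50.3%), arp6-10 at 12 °C carried 329, Col-0 at 24 h carried 63, arp6-10 at 24 h carried 44, and 344 had no single group. Of the 761 probe sets called as labelled, 723 (95.0%) were also called with 16 arrays, all with the same sign, and they made up 46.1% of the 16-array calls. Both fits share 16 arrays, so this overlap describes 1 data set read in both ways. Of the 847 probe sets called with 16 arrays alone, 369 were carried by a group of arp6-10. The 16-array count was 456 without Col-0 24 h replicate 1, 929 without arp6-10 24 h replicate 4 and 977 without the 2 h arrays.

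**Figure D2:**
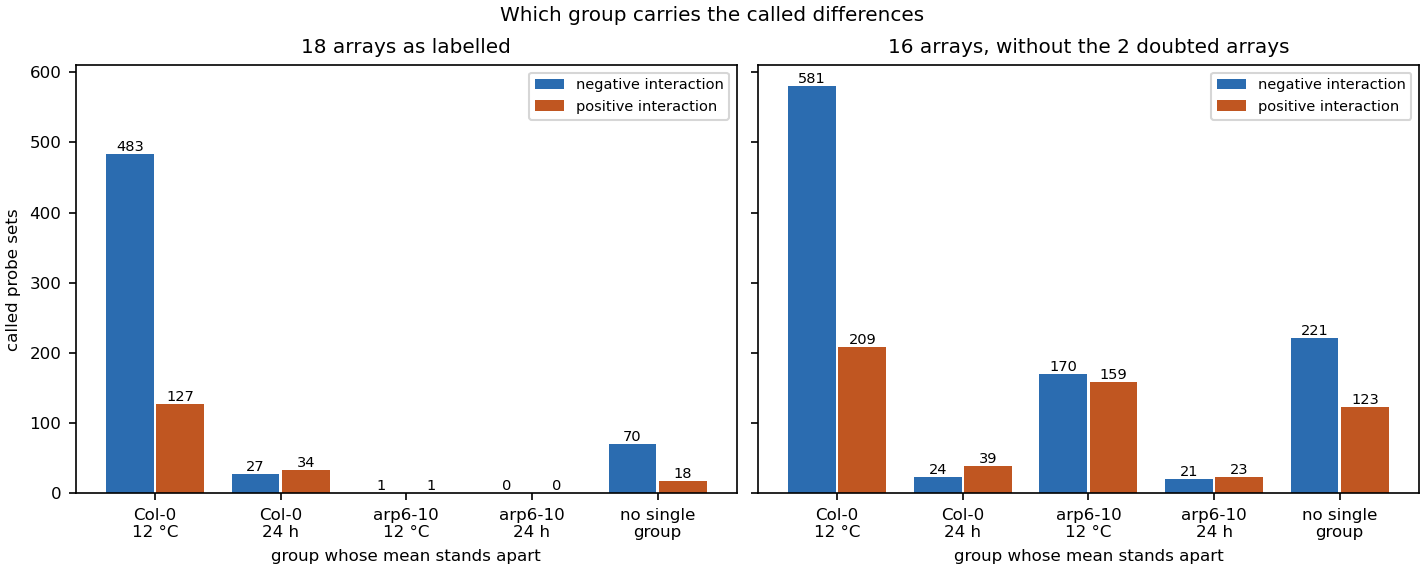
Number of called probe sets (y axis) whose difference is carried by each group or by no single group (x axis), for negative (blue) and positive (orange) interactions, with 18 arrays (left) and 16 arrays (right). Col-0 at 12 °C holds 483 negative and 127 positive calls on the left and 581 and 209 on the right, and arp6-10 at 12 °C holds 1 and 1 on the left and 170 and 159 on the right.

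Among genes low in Col-0 at 12 °C were the chromatin remodellers CHR17 and CHR24. CHR17, an ISWI-type nucleosome remodeller, had levels of 6.10 and 6.32 in Col-0 at 12 °C, 8.34 and 7.91 in Col-0 at 24 h, 7.96, 8.19, 8.69 and 8.00 in arp6-10 at 12 °C, and 8.32, 7.96, 8.17 and 8.18 in arp6-10 at 24 h. Both arrays of Col-0 at 12 °C lay below all other 10 arrays, and the other 3 groups overlapped. CHR17 rose 3.77-fold in Col-0, the change in arp6-10 was -0.06 ± 0.18 (SE), and the interaction was -1.97 ± 0.31 (limma adjusted p = 0.00339), or -1.74 ± 0.28 with 16 arrays (limma adjusted p = 0.00167). CHR24, another ATPase of the SNF2 family, stood at a dim 4.39 and 4.08 in Col-0 at 12 °C and at 6.39 and 6.37 in Col-0 at 24 h. In arp6-10 its levels were 6.55, 6.13, 6.5 and 6.11 at 12 °C and 6.65, 5.78, 6.30 and 6.43 at 24 h. Its interaction was -2.18 ± 0.33 (limma adjusted p = 0.00234), and -1.94 ± 0.30 with 16 arrays.

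CHR23, a remodelling ATPase of the SWI/SNF type, had 4.16 and 4.15 in Col-0 at 12 °C, 6.10 and 5.69 in Col-0 at 24 h, 6.65, 6.96, 7.54 and 6.86 in arp6-10 at 12 °C, and 6.97, 6.75, 6.64 and 6.71 in arp6-10 at 24 h. Col-0 stayed below every arp6-10 array at both points, so no single group carried its interaction of -1.97 ± 0.38 (limma adjusted p = 0.0098). SWC2, a subunit of the same SWR1 complex as ARP6, had 4.30 and 4.46 in Col-0 at 12 °C, 6.0 and 5.52 in Col-0 at 24 h, and between 6.05 and 6.61 on the 8 arrays of arp6-10. It was dim in Col-0 at 12 °C, the 24 h arrays of Col-0 lay under the arp6-10 arrays, and the interaction was -1.53 ± 0.35 (limma adjusted p = 0.022). INO80, the ATPase of another remodelling complex, had an interaction of -0.80 ± 0.33 and was not called. The 18-array calls of CHR17, CHR23 and SWC2 were lost without Col-0 24 h replicate 1, and that of SWC2 also without Col-0 12 °C replicate 1 and with a pseudocount of 64 (-0.67). With 16 arrays CHR17 was called in every alternative tried, and CHR23 and SWC2 were lost without Col-0 24 h replicate 1, SWC2 in others too. CHR24 was called in every alternative tried with either set of arrays. Of the chromatin remodelling and H2A.Z list, 2 of 4 measured members were negative and 0 positive in both fits (2.55% and 4.47% of all probe sets were negative), with a median interaction of -1.17 and -1.05 beside 0.03 and 0.02 for all probe sets. Of 7 genes named CHR, a family gathered after the values were seen, 3 were negative in both fits, and 5 of the 7 were dim in Col-0 at 12 °C.

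NERD, a protein of RNA-directed DNA methylation, had levels of 4.91 and 5.18 in Col-0 at 12 °C and 7.22 and 6.59 in Col-0 at 24 h. In arp6-10 it had 7.14, 8.13, 7.49 and 7.05 at 12 °C and 7.06, 7.23, 7.19 and 6.93 at 24 h. Col-0 at 12 °C was the low group, the interaction was -2.21 ± 0.37 (limma adjusted p = 0.00555) and the call was lost without Col-0 24 h replicate 1. Of 4 measured genes of DNA replication and cell cycle, 1 was negative and 0 positive in both fits. Among all probe sets 2.55% and 4.47% were negative. The called member was POLD3, a subunit of DNA polymerase delta. Its levels were 4.64 and 4.12 in Col-0 at 12 °C, 6.60 and 6.19 in Col-0 at 24 h, 6.96, 6.86, 6.61 and 6.40 in arp6-10 at 12 °C, and 6.74, 6.33, 6.54 and 6.56 in arp6-10 at 24 h. It was dim in Col-0 at 12 °C and alike in the other 3 groups, with an interaction of -2.18 ± 0.30 (limma adjusted p = 0.00166) that was called in every alternative tried.

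**Figure D3:**
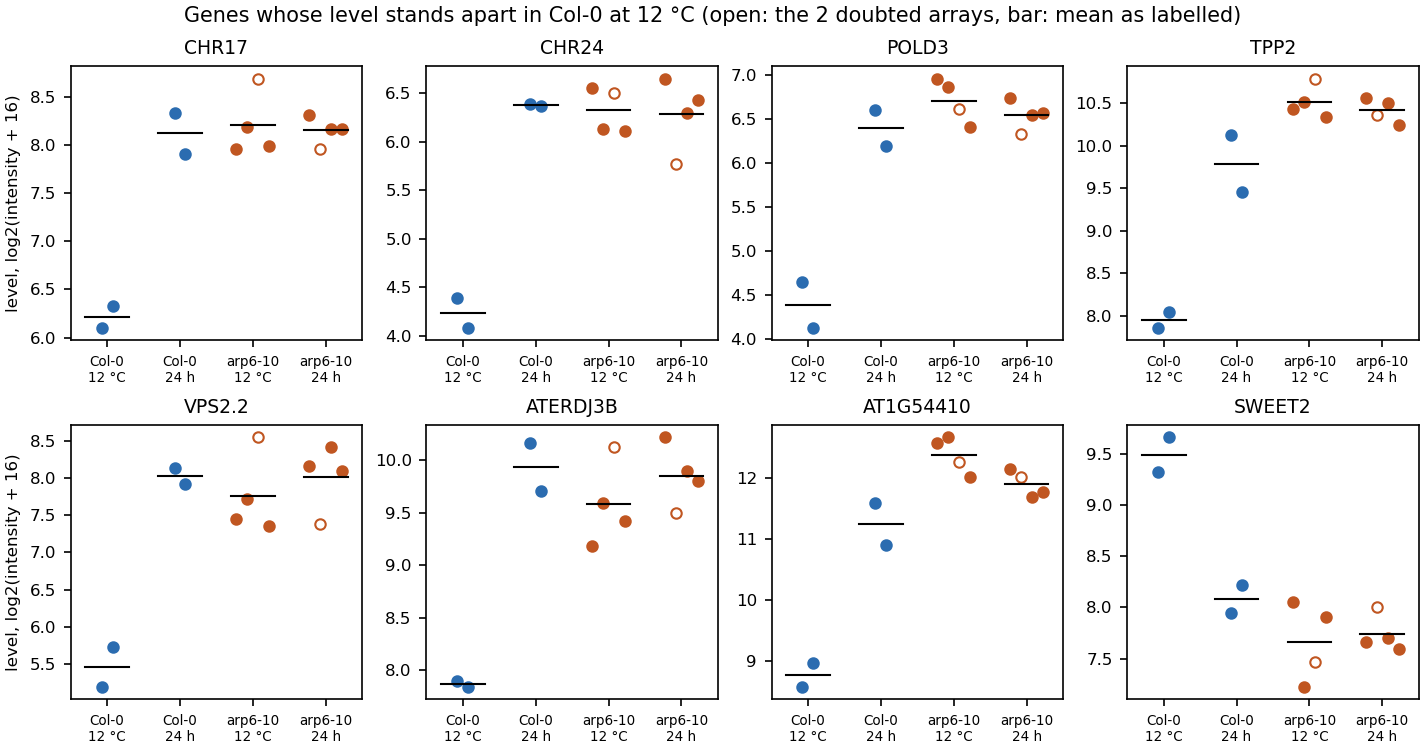
Level of 8 genes, log2(intensity + 16) on the y axis, on each array of the 4 groups on the x axis. Filled points are arrays of Col-0 (blue) and arp6-10 (orange), open points are the arrays labelled arp6-10 12 °C replicate 3 and arp6-10 24 h replicate 2, and bars are group means as labelled; the 2 arrays of Col-0 at 12 °C lie below all others for CHR17, CHR24, POLD3, TPP2, VPS2.2, ATERDJ3B and AT1G54410 and above all others for SWEET2.

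Single genes of protein folding and turnover were also low in Col-0 at 12 °C. TPP2, the giant serine protease tripeptidyl peptidase II, is well above background and had 7.86 and 8.05 in Col-0 at 12 °C, 10.13 and 9.45 in Col-0 at 24 h, 10.43, 10.52, 10.79 and 10.33 in arp6-10 at 12 °C, and 10.57, 10.37, 10.51 and 10.25 in arp6-10 at 24 h. It rose 3.57-fold in Col-0, and its interaction of -1.93 ± 0.27 (limma adjusted p = 0.00166) was called in every alternative tried. ATERDJ3B, a DnaJ co-chaperone of the endoplasmic reticulum, had 7.90 and 7.84 in Col-0 at 12 °C, 10.17 and 9.71 in Col-0 at 24 h, 9.18, 9.59, 10.13 and 9.43 in arp6-10 at 12 °C, and 10.22, 9.5, 9.90 and 9.80 in arp6-10 at 24 h. The arp6-10 arrays at 12 °C overlapped those at 24 h and lay above Col-0 at 12 °C. Its interaction was -1.80 ± 0.33 (limma adjusted p = 0.008). With 16 arrays it was -1.50 ± 0.25, and arp6-10 then also rose, by 0.58 ± 0.16 (limma adjusted p = 0.0152).

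ATERDJ2A and ATERDJ2B, which belong to the machinery of protein import into the endoplasmic reticulum, had interactions of -1.32 ± 0.33 and -1.12 ± 0.20 (limma adjusted p = 0.037 and 0.00753). With ATERDJ3B these were 3 negative calls among 7 measured genes of endoplasmic reticulum folding, in both fits, beside 2.55% and 4.47% of all probe sets, with a list median of -0.56 and -0.61. The calreticulin CRT1b was not called, at -0.34 ± 0.36. Hop1 and Hop2, adaptors that link HSP70 and HSP90, were negative in both fits, at -1.48 ± 0.32 and -1.61 ± 0.36 (limma adjusted p = 0.0161 and 0.0222), while Hop3 was not called, at -1.0 ± 0.91. Of the plastid chaperonin subunits, Cpn60beta2 and Cpn60beta4 were negative in both fits and Cpn60beta3 with 16 arrays. The calls of ATERDJ3B, ATERDJ2A, ATERDJ2B, Hop1, Hop2, Cpn60beta2 and Cpn60beta4 with 18 arrays were lost without Col-0 24 h replicate 1, and those of Hop2, ATERDJ2A, Cpn60beta2 and Cpn60beta4 also without the 2 h arrays and without 1 or both arrays of Col-0 at 12 °C.

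The heat shock list itself gave little. Of 12 measured members, 1 was negative and 0 positive in both fits, while 2.55% and 4.47% of all probe sets were negative. The list median was -0.79 with 18 arrays and -0.09 with 16. The called member was Hsp70-2, a cytosolic HSP70, with an interaction of -0.81 ± 0.21 (limma adjusted p = 0.0444) that was lost in most alternatives. AT5G48570, another member of this list, had 4.95 and 4.15 in Col-0 at 12 °C, 8.08 and 7.23 in Col-0 at 24 h, 4.64, 4.16, 7.17 and 5.04 in arp6-10 at 12 °C, and 7.34, 5.13, 6.46 and 6.61 in arp6-10 at 24 h. The high value at 12 °C and the low value at 24 h are those of the arrays whose profiles went against their labels. Its interaction was -1.98 ± 0.90 with 18 arrays and -0.92 ± 0.48 with 16, not called in either.

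Membrane traffic and lipid genes were further members of the class low in Col-0 at 12 °C. VPS2.2, a subunit of the ESCRT-III complex of endosomal sorting, had 5.20 and 5.73 in Col-0 at 12 °C, 8.13 and 7.91 in Col-0 at 24 h, 7.44, 7.71, 8.54 and 7.35 in arp6-10 at 12 °C, and 8.16, 7.38, 8.41 and 8.10 in arp6-10 at 24 h. All arrays except those of Col-0 at 12 °C lay at 7.35 or higher, and the interaction was -2.31 ± 0.49 (limma adjusted p = 0.0161). VPS2.1 and VPS24.1 of the same complex were negative as well, at -1.42 ± 0.30 and -1.27 ± 0.26 (limma adjusted p = 0.0161 and 0.0134). So 3 of 10 measured VPS genes were negative and 0 positive in both fits. Among all probe sets 2.55% and 4.47% were negative and 0.791% and 2.43% positive. CCT1 and CCT2, enzymes that make CDP-choline for phosphatidylcholine, were both negative, at -2.14 ± 0.35 and -1.60 ± 0.43 (limma adjusted p = 0.00443 and 0.0498), and CCT2 was at -2.03 ± 0.32 with 16 arrays. The calls of VPS2.1, VPS2.2, VPS24.1, CCT1 and CCT2 with 18 arrays were lost without Col-0 24 h replicate 1. Those of VPS2.1 and VPS2.2 were also lost without 1 array of Col-0 at 12 °C. That of CCT2 was lost in 12 of 20 alternatives, among them without the 2 h arrays and with a pseudocount of 64. The VPS and CCT families were gathered after the values were seen.

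In plastids and metabolism, FUG1, a translation initiation factor of the chloroplast, had 10.12 and 10.10 in Col-0 at 12 °C, 11.86 and 11.54 in Col-0 at 24 h, 11.46, 11.61, 12.05 and 11.79 in arp6-10 at 12 °C, and 11.68, 11.68, 12.10 and 11.62 in arp6-10 at 24 h. Its interaction was -1.55 ± 0.28 (limma adjusted p = 0.00727), lost without Col-0 24 h replicate 1. VTC4, which makes the ascorbate precursor L-galactose, changed by a smaller but steady amount, with 8.11 and 8.14 in Col-0 at 12 °C, 9.27 and 9.06 in Col-0 at 24 h, and 9.22 to 9.75 on the 8 arp6-10 arrays. Its interaction of -1.29 ± 0.19 (limma adjusted p = 0.00234) was called in every alternative tried. NTRC, the plastid thioredoxin reductase, had -1.30 ± 0.34 (limma adjusted p = 0.0428), a call lost in 13 of 20 alternatives, among them without Col-0 24 h replicate 1, without the 2 h arrays and with a pseudocount of 64. With 16 arrays it was called in every alternative tried, and Col-0 rose by 0.89 ± 0.18 while arp6-10 fell by 0.75, for an interaction of -1.64 ± 0.24. Of 12 nuclear photosynthesis genes measured, 0 were called in either fit (list medians -0.49 and -0.02). Of 69 plastid-encoded genes, 2 were negative in both fits, beside 2.55% and 4.47% of all probe sets. That share is close to the one of all probe sets with 18 arrays and no higher with 16. The 2 were the ribosomal protein genes rpl22 and rps3, at -2.22 ± 0.52 and -1.31 ± 0.32 (limma adjusted p = 0.0251 and 0.0301), although the list median was positive, at 0.53 and 0.77. With 18 arrays both of these calls were lost without any 1 of the 4 Col-0 arrays and without the 2 h arrays. With 16 arrays that of rpl22 was called in every alternative tried, and that of rps3 was lost without either array of Col-0 at 24 h, without Col-0 12 °C replicate 2 and in 3 alternatives that leave out no array of the 4 groups.

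The largest negative interaction of the named genes carried by Col-0 at 12 °C was that of AT1G54410, the dehydrin HIRD11. It had 8.58 and 8.97 in Col-0 at 12 °C, 11.60 and 10.91 in Col-0 at 24 h, 12.58, 12.67, 12.27 and 12.02 in arp6-10 at 12 °C, and 12.15, 12.03, 11.69 and 11.78 in arp6-10 at 24 h. In arp6-10 it was already 12.2-fold higher than in Col-0 at 12 °C. It rose 5.60-fold in Col-0, the change in arp6-10 was -0.47 ± 0.23, and the interaction was -2.96 ± 0.40 (limma adjusted p = 0.00147), or -3.06 ± 0.41 with 16 arrays. AT1G54410 was 1 of 6 measured members of the cold response list and the only one called. It was negative in both fits, beside 2.55% and 4.47% of all probe sets. Of the others, COR15A and COR15B, which protect chloroplast membranes in the cold, changed in Col-0 by -4.32 and -3.46 (limma adjusted p = 0.0255 and 0.0211). Their interactions of 2.57 ± 1.42 and 2.17 ± 1.09 were not called, and with 16 arrays they were 0.69 ± 0.40 and 0.71 ± 0.30.

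Genes without a symbol made up much of the class. AT5G51840 had a dim 4.59 and 4.24 in Col-0 at 12 °C, 7.21 and 6.95 in Col-0 at 24 h, and 6.59 to 7.49 on the 8 arp6-10 arrays. AT4G16660 had 5.08 and 5.09 in Col-0 at 12 °C, 7.76 and 7.21 in Col-0 at 24 h, and 7.11 to 8.12 in arp6-10. AT1G21740 had a dim 4.21 and 4.54 in Col-0 at 12 °C, 6.90 and 6.74 in Col-0 at 24 h, and 6.18 to 6.77 in arp6-10. For all 3, both arrays of Col-0 at 12 °C lay apart from the other 10. Their interactions were -2.74 ± 0.38, -2.60 ± 0.36 and -2.51 ± 0.31 (limma adjusted p = 0.00166, 0.00166 and 0.000923). These 3 genes, AT1G54410, AT5G08010, AT5G12220, CHR24, POLD3, TPP2, VTC4 and the positive AT1G06980 were the 11 of 95 named genes called with 18 arrays that were called in every alternative tried.

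Fewer genes were high in Col-0 at 12 °C. SWEET2, a sugar transporter of the vacuole, had 9.32 and 9.66 in Col-0 at 12 °C, 7.94 and 8.21 in Col-0 at 24 h, 8.05, 7.23, 7.46 and 7.91 in arp6-10 at 12 °C, and 7.66, 8.01, 7.70 and 7.59 in arp6-10 at 24 h. Both arrays of Col-0 at 12 °C lay above all others. SWEET2 fell 2.66-fold in Col-0, the change in arp6-10 was 0.08 ± 0.18, and the interaction was 1.49 ± 0.32 (limma adjusted p = 0.0161). It was the 1 call among 14 measured SWEET genes with 18 arrays, and 2 were positive with 16, beside 0.791% and 2.43% of all probe sets. This family was gathered after the values were seen. The call of SWEET2 with 18 arrays was lost without Col-0 24 h replicate 1, without Col-0 12 °C replicate 2 and without the 2 h arrays.

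AT1G29090 had 8.00 and 7.87 in Col-0 at 12 °C, 5.63 and 5.87 in Col-0 at 24 h, 5.13, 5.67, 6.01 and 5.89 in arp6-10 at 12 °C, and 5.57, 6.89, 5.62 and 5.82 in arp6-10 at 24 h. It stood apart in Col-0 at 12 °C, with an interaction of 2.49 ± 0.45 (limma adjusted p = 0.00737) that was lost without Col-0 24 h replicate 1. PDF1.2, a defensin induced by jasmonate and ethylene, had 7.62 and 7.58 in Col-0 at 12 °C, 5.56 and 6.54 in Col-0 at 24 h, 5.90, 6.30, 5.96 and 6.69 in arp6-10 at 12 °C, and 5.89, 6.54, 7.52 and 7.63 in arp6-10 at 24 h. Here 2 arrays of arp6-10 at 24 h reached the level of Col-0 at 12 °C, and that group had the widest range of the 4. The interaction of PDF1.2 was 2.23 ± 0.57 (limma adjusted p = 0.0381). It was 1 positive call among 4 measured jasmonate response genes in both fits, beside 0.791% and 2.43% of all probe sets. The call was lost in many alternatives, among them without Col-0 24 h replicate 1. OSM34, an osmotin-like defence protein, and PEX4, a ubiquitin-conjugating enzyme of the peroxisome, were also highest in Col-0 at 12 °C, with interactions of 1.64 ± 0.42 and 0.89 ± 0.19 (limma adjusted p = 0.0381 and 0.016), both lost without Col-0 24 h replicate 1. COR27, a cold-regulated gene also under clock control, fell by 1.97 in Col-0 with an interaction of 1.60 ± 0.32 (limma adjusted p = 0.0118), lost without the same array or Col-0 12 °C replicate 2.

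The levels of the 2 h arrays did not enter the interaction, but these arrays entered the estimate of each probe set's spread that chose the calls, so their counts are given as a description. For the 483 probe sets low in Col-0 at 12 °C, the median level in Col-0 was 6.14 at 12 °C, 7.07 at 2 h and 7.61 at 24 h, and in arp6-10 it was 7.82, 7.70 and 7.71. At 2 h, arp6-10 was called higher than Col-0 at 158 of the 483 (32.7%) and lower at 1, beside 3.20% higher and 2.69% lower among all probe sets. For the 127 high in Col-0 at 12 °C, arp6-10 was called lower at 2 h at 30 (23.6%) and higher at 1. In all, 5.90% of probe sets differed between genotypes at 2 h with 18 arrays and 12.6% with 16. Single genes differed in how far Col-0 had come by 2 h. CHR24 had 5.78 and 5.72 in Col-0 and 6.14, 5.90, 5.85 and 6.07 in arp6-10 at 2 h, a difference of 0.24 that was not called (limma adjusted p = 0.602). CHR23 had 4.95 and 4.08 in Col-0 and 7.11, 6.92, 6.60 and 6.62 in arp6-10 at 2 h, a difference of 2.30 (limma adjusted p = 0.00023). TPP2 lay between them, with 9.54 and 9.25 against 10.71, 10.57, 10.30 and 10.51, a difference of 1.13 (limma adjusted p = 0.00329).

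Col-0 at 24 h carried a small class, which included AT1G47400, BHLH101 and AT4G36700. Of its 61 probe sets with 18 arrays, 34 were dim in at least 1 group, 21 of them in Col-0 at 24 h itself. AT1G47400, a member of the iron homeostasis list, had 8.57 and 8.53 in Col-0 at 12 °C, 10.59 and 11.09 in Col-0 at 24 h, 7.98, 7.94, 8.48 and 8.11 in arp6-10 at 12 °C, and 8.80, 8.15, 6.27 and 7.22 in arp6-10 at 24 h. Both arrays of Col-0 at 24 h lay above all others. AT1G47400 rose 4.89-fold in Col-0, the change in arp6-10 was -0.52 ± 0.37, and the interaction was -2.81 ± 0.63 (limma adjusted p = 0.022). BHLH101, a transcription factor of the iron deficiency response, had 4.09 and 5.42 in Col-0 at 12 °C, 7.16 and 7.12 in Col-0 at 24 h, 5.18, 4.21, 5.87 and 4.51 in arp6-10 at 12 °C, and 5.73, 4.63, 4.21 and 4.79 in arp6-10 at 24 h. It was dim in the other 3 groups, and its interaction was -2.49 ± 0.63 (limma adjusted p = 0.0378). PYE, another regulator of iron homeostasis, was not called, at -0.27 ± 0.39. At 2 h neither AT1G47400 nor BHLH101 differed between genotypes by the test (differences of -0.66 and -0.02, limma adjusted p = 0.421 and 0.99). The 18-array call of AT1G47400 was lost without any 1 of the 4 Col-0 arrays and without the 2 h arrays, and with 16 arrays it was called in every alternative tried. The call of BHLH101 was lost in both fits without either array of Col-0 at 24 h, without Col-0 12 °C replicate 1 and in several other alternatives.

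AT4G36700 had a dim 4.28 and 4.12 in Col-0 at 12 °C, 7.42 and 7.52 in Col-0 at 24 h, 4.09, 4.13, 6.44 and 4.14 in arp6-10 at 12 °C, and 4.82, 5.02, 4.18 and 4.87 in arp6-10 at 24 h. Only the arrays of Col-0 at 24 h and the array labelled arp6-10 12 °C replicate 3 exceeded 5.02. Its interaction of -3.24 ± 0.66 (limma adjusted p = 0.0126) was the most negative of the named genes with 18 arrays, lost without Col-0 24 h replicate 1 and without the 2 h arrays, and with 16 arrays it was -2.75 ± 0.31 (limma adjusted p = 0.000279). Z-ISO, an isomerase of carotenoid synthesis, was instead low in Col-0 at 24 h. It had 9.65 and 9.79 in Col-0 at 12 °C, 8.86 and 9.04 in Col-0 at 24 h, and 9.23 to 10.07 in arp6-10, with an interaction of 1.12 ± 0.28 (limma adjusted p = 0.0348). AT5G03350, of the salicylic acid defence list, fell by 3.01 in Col-0. It had 10.20 and 9.90 in Col-0 at 12 °C, 6.98 and 7.10 in Col-0 at 24 h, 10.03, 10.07, 8.45 and 9.89 in arp6-10 at 12 °C, and 8.57, 9.71, 8.61 and 8.78 in arp6-10 at 24 h. With 16 arrays arp6-10 fell too, by 1.35, and the interaction was 1.68 ± 0.21 (limma adjusted p = 0.000522), so that no single group carried it. With 18 arrays it was 2.32 ± 0.52 (limma adjusted p = 0.0217), and that call and the one of Z-ISO were lost without Col-0 24 h replicate 1, without Col-0 12 °C replicate 1 and without the 2 h arrays.

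The group of arp6-10 at 12 °C became a carrier when both arrays were left out. With 18 arrays its 2 genes were AT3G50940 and AT5G65820, with no level above 5.51 on any array of the 4 groups. With 16 arrays it was high at 170 probe sets, by a median of 0.91 above the mean of the other 3 groups, and low at 159, by a median of 1.13. This count of 329 was 101 without Col-0 24 h replicate 1, 191 without Col-0 12 °C replicate 2, 194 without arp6-10 24 h replicate 4 and 196 without the 2 h arrays. At 2 h, arp6-10 was called higher than Col-0 at 78 of the 170 (45.9%) and lower at 84 of the 159 (52.8%), beside 6.64% and 5.92% of all probe sets in that fit.

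**Figure D4:**
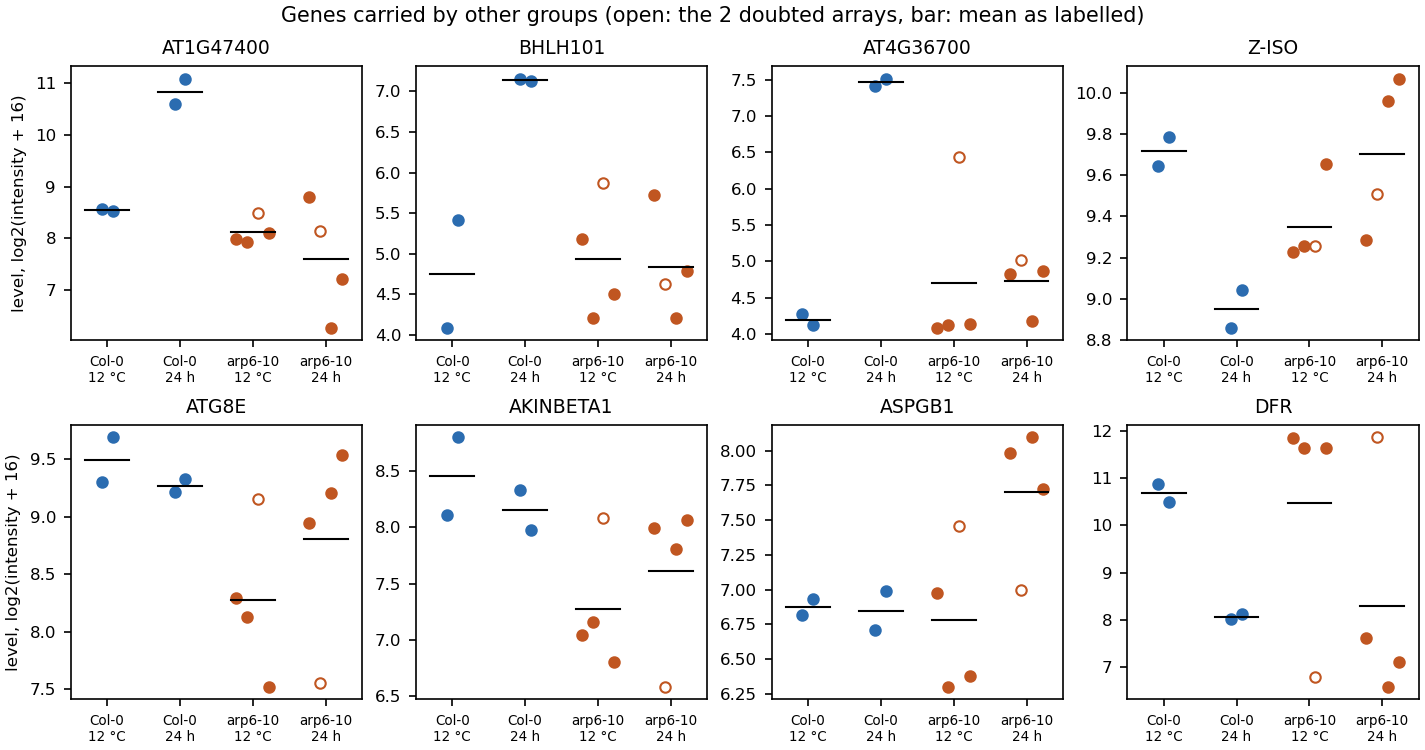
Level of 8 genes, log2(intensity + 16) on the y axis, on each array of the 4 groups on the x axis, with symbols as for the genes carried by Col-0 at 12 °C. AT1G47400, BHLH101 and AT4G36700 are high and Z-ISO is low in Col-0 at 24 h. For ATG8E, AKINBETA1 and DFR the open points lie with the other group of arp6-10. For ASPGB1 the open point at 12 °C lies between the filled points of both arp6-10 groups, and the one at 24 h lies near those at 12 °C. The interactions of ATG8E, AKINBETA1, DFR and ASPGB1 were called with 16 arrays and not with 18.

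Genes low in arp6-10 at 12 °C included ATG8E, ATG8C and AKINBETA1. ATG8E, a ubiquitin-like protein of the autophagosome membrane, had 9.30 and 9.69 in Col-0 at 12 °C, 9.21 and 9.32 in Col-0 at 24 h, 8.29, 8.13, 9.15 and 7.52 in arp6-10 at 12 °C, and 8.94, 7.56, 9.21 and 9.53 in arp6-10 at 24 h. The value of 9.15 and that of 7.56 are from the arrays left out. With 16 arrays ATG8E rose 2.38-fold in arp6-10, the change in Col-0 was -0.23 ± 0.23, and the interaction was 1.48 ± 0.29 (limma adjusted p = 0.00652). With 18 arrays it was 0.76 ± 0.59 and not called. ATG8C was called as well with 16 arrays, at 0.82 ± 0.21 (limma adjusted p = 0.0302, lost in most fits that leave out an array), so 2 of 10 measured autophagy genes were positive and 0 negative, beside 2.43% and 4.47% of all probe sets, and the list median was 0.15.

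AKINBETA1, a regulatory subunit of the energy-sensing kinase SnRK1, had 8.10 and 8.80 in Col-0 at 12 °C, 8.33 and 7.97 in Col-0 at 24 h, 7.05, 7.16, 8.08 and 6.81 in arp6-10 at 12 °C, and 8.00, 6.59, 7.81 and 8.06 in arp6-10 at 24 h. Without the third array at 12 °C and the second at 24 h, the groups of arp6-10 did not overlap, and the interaction was 1.25 ± 0.28 (limma adjusted p = 0.0118), lost without Col-0 12 °C replicate 2. AT3G15450 had the largest positive interaction of the named genes with 16 arrays, 3.26 ± 0.43 (limma adjusted p = 0.000799). It had 11.10 and 12.41 in Col-0 at 12 °C, 10.11 and 10.42 in Col-0 at 24 h, 9.48, 9.46, 10.81 and 8.74 in arp6-10 at 12 °C, and 11.08, 8.44, 10.94 and 10.89 in arp6-10 at 24 h. Col-0 fell by 1.5 while arp6-10 rose by 1.75 ± 0.27. WES1, a GH3 enzyme that conjugates auxin, and the expansin EXPA8 were the 2 positive calls among 5 measured genes of warm growth and auxin, at 1.26 ± 0.24 and 1.68 ± 0.40 with 16 arrays (limma adjusted p = 0.00547 and 0.0183). Among all probe sets 2.43% were positive in that fit. With 18 arrays 0 of the 5 were called. The call of EXPA8 was lost without Col-0 12 °C replicate 1, without either array of Col-0 at 24 h and without the 2 h arrays, and GH3.3 was not called, at -0.37 ± 0.39.

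Genes high in arp6-10 at 12 °C included ones of ribosome biogenesis. In this list of 16 measured members, 4 were negative and 0 positive with 18 arrays (2.55% and 0.791% of all probe sets), and 9 and 0 with 16 arrays (4.47% and 2.43%), with a median interaction of -0.83 and -1.30. These counts take in all carriers, and 2 of the 9 were carried by Col-0 at 12 °C. AT3G22660 had 7.11 and 7.49 in Col-0 at 12 °C, 7.47 and 7.46 in Col-0 at 24 h, 9.03, 9.25, 7.75 and 9.56 in arp6-10 at 12 °C, and 7.59, 9.69, 7.75 and 6.70 in arp6-10 at 24 h. With 16 arrays it fell 3.84-fold in arp6-10, with a change of 0.16 ± 0.30 in Col-0 and an interaction of -2.10 ± 0.39 (limma adjusted p = 0.004). NRPA1, the largest subunit of RNA polymerase I, had -1.30 ± 0.37 with 16 arrays (limma adjusted p = 0.0428), carried by arp6-10 at 12 °C and lost without Col-0 24 h replicate 1 among other alternatives, while NRPA2, the second largest subunit, was not called, at -0.47 ± 0.23. The 4 members called with 18 arrays were AT2G18220, AT3G05060, AT2G40430 and AT2G37990. For them Col-0 rose, by 0.90 to 1.46, and arp6-10 lay higher than Col-0 at 12 °C, by 2.12 to 2.69. No single group carried their interactions of -1.31 to -2.05, and all 4 of these calls were lost without Col-0 24 h replicate 1 and without the 2 h arrays.

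APL3 and APL4, large subunits of the starch enzyme ADP-glucose pyrophosphorylase, were both highest in arp6-10 at 12 °C. APL3 had 5.86 and 5.37 in Col-0 at 12 °C, 5.84 and 6.10 in Col-0 at 24 h, 7.35, 7.48, 6.24 and 8.02 in arp6-10 at 12 °C, and 5.88, 7.96, 6.0 and 6.46 in arp6-10 at 24 h. Its interaction was -1.85 ± 0.45 with 16 arrays (limma adjusted p = 0.0201), lost without Col-0 12 °C replicate 2 and without either array of Col-0 at 24 h. That of APL4 was -1.20 ± 0.35 (limma adjusted p = 0.0451), and it was lost without Col-0 24 h replicate 1 among other alternatives.

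With both arrays left out, 4 flavonoid genes fell in both genotypes and fell further in arp6-10. DFR, the dihydroflavonol reductase of anthocyanin synthesis, had 10.87 and 10.49 in Col-0 at 12 °C, 8.02 and 8.12 in Col-0 at 24 h, 11.84, 11.64, 6.79 and 11.64 in arp6-10 at 12 °C, and 7.61, 11.86, 6.60 and 7.12 in arp6-10 at 24 h. The arrays labelled arp6-10 12 °C replicate 3 and arp6-10 24 h replicate 2 lay at the level of the opposite group. With 16 arrays DFR fell by 2.62 in Col-0 and by 4.62 in arp6-10, and the interaction was -2.0 ± 0.34 (limma adjusted p = 0.00266). With 18 arrays it was 0.42 ± 1.78, with the opposite sign and not called. UF3GT, AT4G14090 and CHIL of the same list had interactions of -1.52 ± 0.31, -1.53 ± 0.34 and -1.08 ± 0.20 with 16 arrays (limma adjusted p = 0.00792, 0.0134 and 0.0045). These were 4 negative calls among 9 measured flavonoid genes, beside 4.47% of all probe sets, with a list median of -1.05, and with 18 arrays 0 of the 9 were called, with a median of 0.42. The call of AT4G14090 was lost without either of the arrays Col-0 12 °C replicate 2 or Col-0 24 h replicate 2.

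The group of arp6-10 at 24 h carried 44 probe sets with 16 arrays and 0 with 18. ASPGB1, an asparaginase, had 6.82 and 6.93 in Col-0 at 12 °C, 6.71 and 6.99 in Col-0 at 24 h, 6.98, 6.30, 7.46 and 6.38 in arp6-10 at 12 °C, and 7.98, 7.0, 8.10 and 7.72 in arp6-10 at 24 h. With 16 arrays it rose 2.61-fold in arp6-10, with a change of -0.03 ± 0.25 in Col-0 and an interaction of 1.42 ± 0.33 (limma adjusted p = 0.0152), lost without either of the arrays Col-0 12 °C replicate 2 or Col-0 24 h replicate 1. ALN, the allantoinase of purine breakdown, had an interaction of 1.25 ± 0.33 (limma adjusted p = 0.0323) and the plastid-encoded psbB, a core antenna protein of photosystem II, 2.91 ± 0.77 (limma adjusted p = 0.0323). The arrays of psbB ran from 7.39 to 10.75 in arp6-10 at 12 °C, and its call was lost without Col-0 24 h replicate 1 and in several other alternatives, while that of ALN was lost in several that leave out an array.

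A large genotype difference did not by itself give an interaction. QQS, a regulator of carbon and nitrogen allocation that is found in Arabidopsis thaliana alone, had 5.23 and 5.30 in Col-0 at 12 °C, 5.98 and 5.38 in Col-0 at 24 h, 10.43, 10.61, 11.52 and 10.51 in arp6-10 at 12 °C, and 11.59, 10.56, 11.35 and 11.33 in arp6-10 at 24 h. It was 45.3-fold higher in arp6-10 at 12 °C, the groups of both genotypes lay far apart at both points, and its interaction was 0.03 ± 0.44 with 18 arrays and 0.50 ± 0.30 with 16, not called in either. ICL, the isocitrate lyase of the glyoxylate cycle, fell by 1.66 in Col-0, and its interaction was 1.64 ± 0.47 (limma adjusted p = 0.0647), just above the threshold. Of the 3 measured genes of alternative respiration and the glyoxylate cycle, 0 were called in either fit.

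Most of the other lists had few or no calls. There were 0 calls in both fits among 11 tau glutathione transferases, 14 bZIP factors, 6 WRKY factors, 3 CC-type glutaredoxins, 2 glucosinolate genes and 4 root markers, whose median interaction was -0.10 with 18 arrays and -0.34 with 16. The circadian gene GI had 0.40 ± 0.21 and the flowering gene AGL24 -0.67 ± 0.41, both not called. Of 18 expansins, EXPA8 was the only call, with 16 arrays. Of 9 plant U-box ligases PUB49 alone was called, negative in both fits, at -1.64 ± 0.37 (limma adjusted p = 0.0213). That call was lost without either of the arrays Col-0 24 h replicate 1 or Col-0 12 °C replicate 2. Of 16 mitochondria-encoded genes, nad1 and ccmFC were positive with 16 arrays, at 1.51 ± 0.42 and 1.53 ± 0.40 (limma adjusted p = 0.0386 and 0.0298). Both were highest in Col-0 at 12 °C, and both calls were lost without Col-0 24 h replicate 1. Among all probe sets 2.55% and 4.47% were negative with 18 and 16 arrays, and 0.791% and 2.43% positive.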

How the data were processed

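Per the labels' protocols, total RNA from whole seedlings was extracted with Trizol and 1 µg was made into biotinylated cRNA for 1 Affymetrix array per sample. The authors deposited linear signal intensity values, 1 per probe set. GCOS is the tool that the submitters' processing notes name, and its version is not given in the sources used here. The trimmed mean (2% off each end) was 250.03 to 250.04 on every array. Values of 22746 probe sets (64 controls left out) were taken as log2(intensity + 16), quantile normalized, and fitted as 6 group means (limma 3.58.1, R 4.3.3, lmFit and eBayes with a trend, two-sided, Benjamini-Hochberg over all probe sets), with 12 residual degrees of freedom for 18 arrays and 10 for 16, normalized separately. Printed levels come from the 18-array normalization. The step was tested on simulated data. No 2 arrays correlated above 0.9873. Deviations of arrays of the same number in different groups had correlations of -0.30 to 0.44 over 14 pairs, 2 of them over 0.1. They were taken from group means that include the 2 arrays whose profiles went against their labels. In a Col-0 group of 2 arrays the deviations mirror each other. This check therefore cannot show whether the numbers pair samples.

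Only probe sets paired with 1 gene were named (13513; 503 had several genes and 8730 are not listed in the table used), with symbols from RefSeq, and 1 probe set per gene. No build is named, so no coordinates are given. Genes named are the 10 largest interactions in each direction, the 5 largest per carrying group and the measured list members. Called genes with a symbol and the CHR, VPS, CCT, SWEET, Hop, chaperonin, APL and ATG8 families were chosen after their values were seen. Comparisons, members and lists were all chosen with earlier results of these data known.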

Additional observations from a re-analysis of the deposited data

Results flagged for a closer look

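The 24 h response differed between genotypes by limma's interaction test for 761 probe sets with 18 arrays and for 1570 with 16.

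Among the 42 genes named by size, each of the 84 groups of 4 arp6-10 arrays was searched by Dixon's criterion. It looks for a single array far from the other 3, which chance meets in about 1 of 20 groups. It was met in 8. The genes were chosen by the size of their interactions, in part in the fit without the 2 arrays flagged below. That rate therefore does not hold for these genes, and the 8 are a description. The array labelled arp6-10 12 °C replicate 3 was apart for AT4G19430 (level 7.80), AT4G36700 (6.44) and AT5G03350 (8.45). The array labelled arp6-10 24 h replicate 2 was apart for AT1G23390 (7.61), AT3G15450 (8.44), AT4G19430 (4.10), AT5G12220 (7.35) and AT5G56100 (7.16). These are the arrays left out of the 16-array results.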

How the results depend on the processing

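With 18 arrays the 761 calls became 1570 without the 2 arrays whose profiles went against their labels, 1055 with values as deposited, 929 with dim probe sets (under the 30th percentile) left out, 671 with a pseudocount of 64, 324 with the 4 groups alone, 768 without a trend, 833 with array weights, and 61 (without Col-0 24 h replicate 1) to 890 in leave-one-out fits, among them 365 without Col-0 12 °C replicate 1 and 486 without arp6-10 24 h replicate 4. The negative share of 76.3% was 64.8% without those 2 arrays, 68.7% with a pseudocount of 64, 83.3% as deposited and 90.2% without Col-0 24 h replicate 1. The 610 carried by Col-0 at 12 °C became 281 with the 4 groups alone and 54 to 660 in leave-one-out fits (325 without Col-0 12 °C replicate 1). With 16 arrays the 1570 became 977 with the 4 groups alone, 1107 with array weights, and 456 (without Col-0 24 h replicate 1) to 1649 in leave-one-out fits (929 without arp6-10 24 h replicate 4), and the 790 carried by Col-0 at 12 °C became 504 and 201 to 887 (465). With the replicate number as a block the counts were 745 and 1655, though it is not known whether the numbers pair samples. Of the named genes called, 11 of 95 (18 arrays) and 66 of 169 (16 arrays) were called in every alternative to that fit, 28 and 41 were lost in leave-one-out fits alone, and none reversed in those alternatives. The alternatives to the 16-array fit do not include the 18 arrays as labelled, with which DFR, UF3GT, AT4G14090 and CHIL had the opposite sign and were not called. Fits that leave 1 array in a Col-0 group assume that it varies like the others, and the cause of these changes was not tested. In simulated data an interaction of 2 log2 units was called for 68% (18 arrays) and 73% (16) of the shifted probe sets. One of 1 unit was called for 1% and 12%. There, 100 of 22746 probe sets were shifted at each size, and the adjustment is stricter when few probe sets change. The shift was put on every array labelled arp6-10 24 h in the fit. These rates therefore do not give the share of differences that went uncalled here.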
